A study of Mus musculus with 12 samples.

Results

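The genes described here store, import, export or recycle iron in the macrophage. They were taken by name, as a list of 10 among the 38887 genes of the tables. No threshold on a measured value was set, but the list was drawn up with earlier results of these data known. It holds the ferritin subunits Ftl1 and Fth1, the uptake genes Tfrc, Steap3 and Slc11a2, the phagosome transporter Slc11a1, the exporter Slc40a1, the haem-degrading enzyme Hmox1, and Ireb2 and Ncoa4, which control iron use and ferritin release. All 10 passed the filter on low counts. RNA-Seq was performed on bone marrow-derived macrophages (BMMs), grown from mouse marrow with the growth factor M-CSF, in 12 libraries. The 4 groups of 3 libraries were WT M0 and IGF2BP2 KO M0, left untreated, and WT M2 and IGF2BP2 KO M2, given 20 ng/ml IL-4 for 8 h to drive alternative activation. KO mice carried Igf2bp2 with loxP sites around exons 4 and 5 together with Cre in the Lyz2 locus, which is active in myeloid cells. The WT littermates had no floxed Igf2bp2, and only some of them had Cre. The ages of the mice are not in the sample labels.

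Macrophages recycle most of the iron that the body uses, because they engulf old red cells and break down their haem. Transferrin-bound iron enters through the transferrin receptor (Tfrc), is reduced in the endosome by the ferrireductase Steap3 and crosses into the cytosol through DMT1 (Slc11a2). Iron freed from haem by haem oxygenase 1 (Hmox1) joins the same pool, which is either stored in a ferritin shell of light (Ftl1) and heavy (Fth1) chains or leaves the cell through ferroportin (Slc40a1). NRAMP1 (Slc11a1) moves divalent metals out of the phagosome and restricts microbes there. When iron is scarce, the iron regulatory proteins, one of which is encoded by Ireb2, bind hairpins in the mRNA called iron responsive elements. Binding in a 5′ UTR blocks translation, and binding in a 3′ UTR protects the mRNA from decay. Ncoa4 is the cargo receptor that carries ferritin to the lysosome so that its iron is released.

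Because these hairpins decide which members the iron regulatory proteins can bind, the UTRs of GENCODE M21 (GRCm38) were searched for them. A match was a C, 5 bases of the first stem arm, the loop CAGTGN and 5 bases of the second arm, with at least 4 of 5 pairs between the arms (G-U pairs allowed), on the sense strand. Such matches were present in 5 of the 10 members and numbered 8 in all. For comparison, 1.00% of 20597 genes with a 5′ UTR and 4.15% of 20995 genes with a 3′ UTR held at least 1. The 3 matches in a 5′ UTR belonged to both ferritin chains and to ferroportin, and are shown 5′ to 3′ with 5 flanking bases and the loop in capitals:

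Ftl1, chr7:45459780-45459806, minus strand: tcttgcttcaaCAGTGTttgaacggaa

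Fth1, chr19:9982733-9982759, plus strand: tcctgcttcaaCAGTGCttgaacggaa

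Slc40a1, chr1:45925466-45925492, minus strand: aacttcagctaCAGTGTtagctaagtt

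The 5 matches in a 3′ UTR belonged to the transferrin receptor, with 4 that start between positions 892 and 1383 of the UTR, and to DMT1, where the match was in 1 of 6 coding transcripts (Slc11a2-205). They are written in the same way:

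Tfrc, chr16:32631220-32631246, plus strand: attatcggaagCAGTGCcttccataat

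Tfrc, chr16:32631599-32631625, plus strand: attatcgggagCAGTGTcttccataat

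Tfrc, chr16:32631664-32631690, plus strand: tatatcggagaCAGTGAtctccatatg

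Tfrc, chr16:32631711-32631737, plus strand: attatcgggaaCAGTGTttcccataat

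Slc11a2, chr15:100395154-100395180, minus strand: gccatcagagcCAGTGTgtttctatgg

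The Slc11a2 match had 4 of 5 pairs and the others had 5 of 5. No match was found for Steap3, Slc11a1, Hmox1, Ireb2 and Ncoa4, which says only that these letters are not in their annotated UTRs. A match is a description of the sequence, and mRNA levels measured here do not show translation.

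The libraries held 20011792 to 39632770 counts. All 8 macrophage markers were present, with summed levels of 3510 to 4510 TPM (transcript abundance per length within a library), whereas the erythroid markers, whose cells also handle much iron and haem, summed to at most 0.37 TPM, with 4 to 7 of the 9 matched at 0 counts in each group. Markers of T and B cells and of mast cells and basophils summed to at most 0.94 TPM, and those of dendritic cells to 0.19 to 0.6 TPM in M0 and 0.89 to 1.12 TPM in M2. Igf2bp2, counted over the whole gene, differed between KO and WT by -0.11 on the log2 scale in M0 (edgeR adjusted p = 0.656, SE 0.13) and by -0.65 in M2 (edgeR adjusted p = 0.0285, SE 0.13). Reads of the exons that remain are part of these counts. Lyz2 differed by -8.3 (edgeR adjusted p = 7.73e-10, SE 0.23) and by -8.57 (edgeR adjusted p = 6.84e-10, SE 0.23) on the same scale, so that loss of Lyz2 accompanied the deletion and their effects cannot be told apart. The WT libraries numbered 3 stood apart from the other WT libraries, with a chi-square per degree of freedom of 39 and 23.7 in M0 against 8.5 between the other two, and of 20.7 and 17 against 5.74 in M2. The KO M2 library numbered 1 also differed more from the other two (19.7 and 14.8) than they did from each other (4.93), and without it the number of members called was 3 between genotypes in M2 and 9 for IL-4 in KO, as with it. The 9 genes were not the same, since Ncoa4 was no longer called (adjusted p = 0.0745) and Ireb2 was (0.15, adjusted p = 0.0347). Where a call of a member changes without the WT libraries numbered 3, the value without them is given. In bulk RNA, fewer cells of a type and less RNA per cell cannot be told apart.

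Ferritin stood far above the rest, with a mean of 27119 ± 2160 TPM for Fth1 and 25853 ± 1040 TPM for Ftl1 (SD, n = 3) in WT M0, and the 2 chains together took 1.85% to 2.74% of all counts and 87.2% to 91.6% of the counts of the list. Hmox1 followed with 1733 ± 221 TPM and Slc11a1 with 428 ± 44.9 TPM. The remaining 6 genes lay between 30.1 and 145 TPM, in the order Ncoa4, Tfrc, Slc11a2, Steap3, Slc40a1 and Ireb2. In WT M0, the ranges of Fth1 and Ftl1, of Ncoa4 and Tfrc, and of Slc40a1 and Ireb2 overlapped, and all other neighbours in the order were apart. In WT M2 no neighbours overlapped: Tfrc had moved above Slc11a1, Ftl1 above Fth1, and Slc40a1 had become the lowest of the list.

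**Figure D1:**
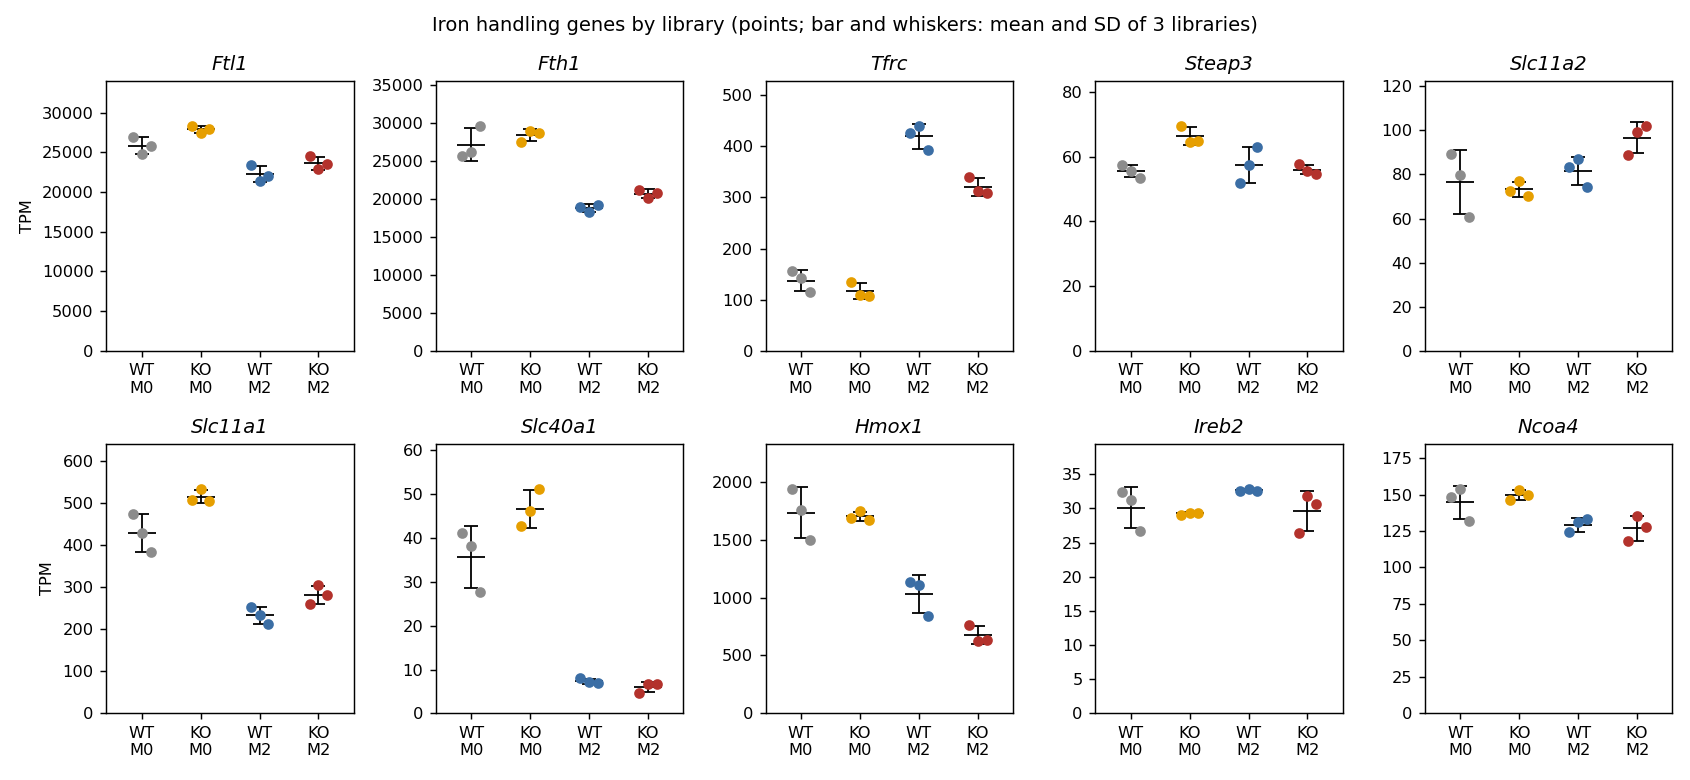
Levels of the 10 iron handling genes in TPM (vertical axes, each from 0) in the 3 libraries of each group. Points are libraries, and bars with whiskers are mean and SD. Tfrc rises and Slc40a1, Hmox1, Slc11a1 and Fth1 fall from M0 to M2 with no overlap in either genotype, and Hmox1 and Tfrc are lower in KO M2 than in WT M2.

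At the mRNA level, IL-4 raised the transferrin receptor and lowered both ferritin chains, ferroportin, haem oxygenase 1 and NRAMP1 in both genotypes. In WT, 7 of the 10 genes changed (2 higher, 5 lower, edgeR adjusted p under 0.05), where 50.0% of the 12846 genes tested changed, 24.9% higher and 25.1% lower. In KO, 9 of the 10 changed (2 higher, 7 lower), against 52.8% of all genes, 26.8% higher and 26.0% lower. Tfrc, Slc40a1, Hmox1, Slc11a1, Fth1 and Ftl1 were called in both genotypes and in the same direction. The median log2 fold change of the list was -0.11 in WT and -0.17 in KO. Genes of cell division moved with the same contrast: all 10 markers of dividing cells were lower after IL-4 in WT and in KO, their summed level being 1130 to 1500 TPM in M0 and 413 to 725 TPM in M2, and its part in the results below was not tested.

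Of the storage genes, Fth1, the chain that oxidises iron so that it can be stored, gave 25605, 26154 and 29596 TPM in WT M0 and 18923, 18239 and 19190 TPM in WT M2. In KO it gave 27435, 28916 and 28730 TPM in M0 and 21181, 20080 and 20822 TPM in M2. Every M2 library was below every M0 library. The log2 fold change was -0.47 (edgeR adjusted p = 0.00015, SE 0.07) in WT and -0.37 (edgeR adjusted p = 0.000822, SE 0.07) in KO.

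Ftl1, the chain that helps the iron core to form, changed less. Its values were 26902, 24826 and 25833 TPM in WT M0, 23378, 21434 and 22017 TPM in WT M2, 28313, 27410 and 27888 TPM in KO M0, and 24506, 22852 and 23496 TPM in KO M2. The groups did not overlap within a genotype, and the log2 fold change was -0.15 (SE 0.05) in both, with adjusted p = 0.0338 in WT and 0.0283 in KO. Each call was lost in 4 of 6 leave-one-out fits. Without the WT libraries numbered 3 the WT value was -0.11 with adjusted p = 0.172, the highest of its alternatives (from 0.00599). Ftl1 also shares sequence with the pseudogene Ftl1-ps1, to which 710 to 2254 counts were assigned against at least 213231 for Ftl1, and overlaps Gm22133 (at most 877 counts).

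The balance of the chains was compared within each library. Fth1 per Ftl1 in TPM was 0.952, 1.05 and 1.15 in WT M0 and 0.809, 0.851 and 0.872 in WT M2, and in KO 0.969, 1.05 and 1.03 in M0 and 0.864, 0.879 and 0.886 in M2. The M2 values lay below the M0 values in both genotypes. The difference of the mean log2 ratio was -0.31 in WT and -0.22 in KO, each with p = 0.1 in an exact two-sided permutation test, which is the smallest p that 3 against 3 libraries can give. Between genotypes the difference was -0.04 in M0 (exact permutation p = 0.7) and 0.05 in M2 (exact permutation p = 0.2).

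Of the uptake genes, Tfrc rose most. It was 156, 142 and 114 TPM in WT M0 and 427, 440 and 392 TPM in WT M2, and in KO it was 135, 109 and 108 TPM in M0 and 341, 313 and 309 TPM in M2. The lowest M2 library was above the highest M0 library by a wide margin. The rise was 3.27-fold in WT (log2 1.71, edgeR adjusted p = 9.27e-09, SE 0.09) and 2.96-fold in KO (log2 1.56, edgeR adjusted p = 1.94e-08, SE 0.09), and it was called in every alternative fit of both genotypes.

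Slc11a2 gave 89.2, 79.6 and 60.5 TPM in WT M0, 83.2, 87.2 and 74.5 TPM in WT M2, 72.7, 76.9 and 70.3 TPM in KO M0, and 88.8, 99.2 and 102 TPM in KO M2. The KO groups were apart and the WT groups overlapped, with WT M0 spread most widely. It rose in KO (log2 0.37, edgeR adjusted p = 0.00514, SE 0.09). In WT the change was 0.22 (edgeR adjusted p = 0.0733, SE 0.09), and it was called when the library number entered as a block (0.22, adjusted p = 0.00156) and without the WT libraries numbered 3 (0.25, adjusted p = 0.00526), with adjusted p up to 0.484 among the alternatives.

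Steap3 was 57.3, 55.7 and 53.5 TPM in WT M0 and 51.8, 57.3 and 63.1 TPM in WT M2, with overlap and no call (log2 0.11, edgeR adjusted p = 0.16, SE 0.06). In KO it fell from 69.5, 64.5 and 65 TPM to 57.6, 55.5 and 54.8 TPM, a log2 fold change of -0.19 (edgeR adjusted p = 0.0237, SE 0.06). This call was lost in 3 of 6 leave-one-out fits, with values from -0.24 to -0.16 over all alternatives.

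Slc11a1, the phagosome transporter, fell in both genotypes. Its levels were 473, 428 and 384 TPM in WT M0, 254, 233 and 213 TPM in WT M2, 508, 534 and 504 TPM in KO M0, and 261, 304 and 282 TPM in KO M2. No M2 library reached an M0 library, and the log2 fold change was -0.75 (SE 0.06) in each genotype, with adjusted p = 4.08e-07 in WT and 3.44e-07 in KO. Neutrophils also express Slc11a1. Their 8 markers summed to 23.8 to 61.2 TPM in WT M0 and 14.2 to 36.1 TPM in WT M2, with 2 of the 4 tested lower after IL-4, and to 17.8 to 19.2 and 13.7 to 19.1 TPM in KO, with 0 of the 4 lower. In each group 3 or 4 of the 8 markers reached 1 TPM, and Ly6g had no counts. Their part in this fall was not tested.

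Slc40a1, the only known iron exporter of mammalian cells, had the largest change of the list. It fell from 41.1, 38.1 and 27.6 TPM to 8.04, 7.05 and 7 TPM in WT, and from 42.6, 46.2 and 51.2 TPM to 4.7, 6.71 and 6.77 TPM in KO. This is 4.61-fold lower in WT (log2 -2.2, edgeR adjusted p = 5.13e-08, SE 0.14) and 7.25-fold lower in KO (log2 -2.86, edgeR adjusted p = 3.66e-09, SE 0.14).

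Hmox1 fell from 1940, 1760 and 1500 TPM to 1138, 1112 and 842 TPM in WT, and from 1688, 1745 and 1670 TPM to 764, 627 and 634 TPM in KO. No M2 library reached an M0 library of its genotype. The log2 fold change was -0.69 (edgeR adjusted p = 0.000356, SE 0.12) in WT, which is 1.61-fold lower, and -1.25 (edgeR adjusted p = 1.92e-06, SE 0.12) in KO, which is 2.37-fold lower.

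Of the control genes, Ireb2, encoding iron regulatory protein 2, which is itself regulated mainly through the stability of the protein, changed little. It ranged from 26.4 to 32.9 TPM over all libraries. In WT it rose from 32.4, 31.3 and 26.7 TPM to 32.5, 32.9 and 32.6 TPM (log2 0.18, edgeR adjusted p = 0.0185, SE 0.06), and without the WT libraries numbered 3, of which the M0 library is the lowest of these, the value was 0.13 with adjusted p = 0.0991 (0.00939 to 0.261 over the alternatives). In KO it was 0.1 (edgeR adjusted p = 0.173, SE 0.06).

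Ncoa4 was 148, 154 and 132 TPM in WT M0 and 124, 131 and 133 TPM in WT M2 (log2 -0.07, edgeR adjusted p = 0.343, SE 0.06). In KO it fell from 146, 153 and 150 TPM to 118, 135 and 128 TPM (log2 -0.15, edgeR adjusted p = 0.0322, SE 0.06), a call lost in 4 of 6 leave-one-out fits.

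**Figure D2:**
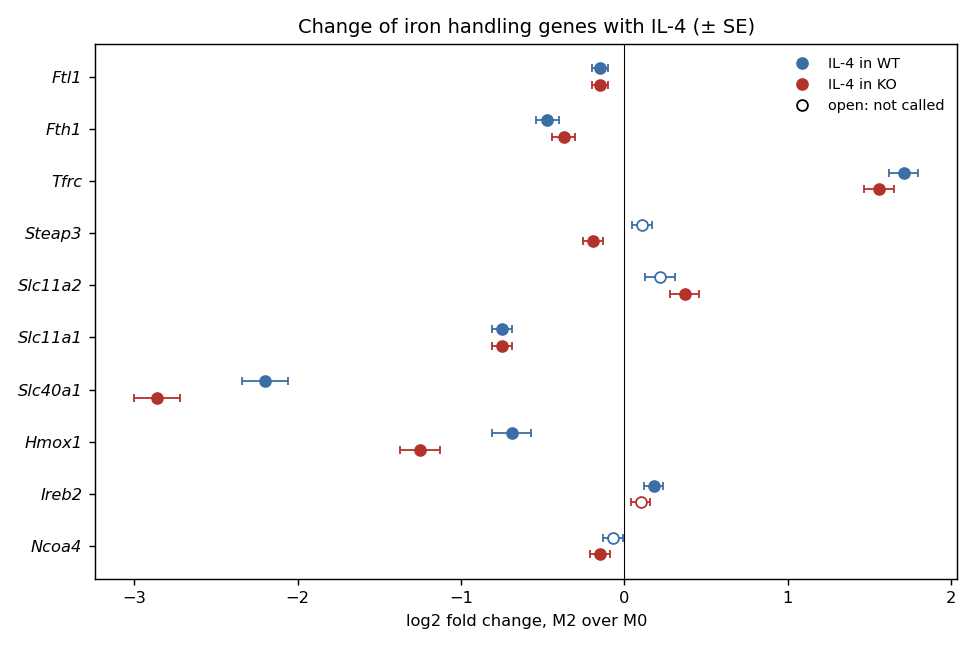
Log2 fold change between M2 and M0 (horizontal axis) for each of the 10 genes, with its SE, in WT (blue) and KO (red). Filled points were called at an edgeR adjusted p under 0.05. Tfrc lies far to the right (1.71 and 1.56) and Slc40a1 far to the left (-2.2 and -2.86), and the genotypes are farthest apart for Slc40a1, Hmox1 and Steap3.

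Fewer members differed between KO and WT than between M2 and M0. In M0, 2 of the 10 genes were called, both higher in KO, against 9.78% of all genes (5.50% higher and 4.27% lower). In M2, 3 were called, 1 higher and 2 lower, against 2.68% of all genes (1.21% higher and 1.46% lower). The median log2 fold change of the list was 0.07 in M0 and -0.02 in M2. At an unadjusted p under 0.05, 5 members passed in M0, where 25.3% of all genes did, and 4 in M2, where 20.3% did. These comparisons use the same libraries as those of IL-4, so that both sets of results are not independent. The 6 markers of stromal cells, which can grow in marrow cultures, summed to 10.9 to 21.3 TPM in WT M0 and 3.39 to 12.6 TPM in KO M0, and to 12.2 to 22.8 TPM in WT M2 and 3.18 to 10.8 TPM in KO M2, without overlap in M2. Of the 4 tested, 0 were called in either state (median log2 -0.8 and -1.23), 2 or 3 of the 6 reached 1 TPM in each group, and Lum had no counts in 3 of the 4 groups. Their part in the results below was not tested.

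Slc11a1 was called in both states. In M0 every KO library (504 to 534 TPM) was above every WT library (384 to 473 TPM), and in M2 the KO libraries (261 to 304 TPM) were above the WT libraries (213 to 254 TPM). The log2 fold change was 0.29 (edgeR adjusted p = 0.0112, SE 0.06) in M0 and 0.28 (edgeR adjusted p = 0.0313, SE 0.06) in M2. The call in M0 was lost in 2 of 6 leave-one-out fits and with limma, and that in M2 in 4 of 6 and with limma or only the 6 libraries compared. Of the 4 neutrophil markers tested, 3 were lower in KO in M0 and 0 in M2, so that in M0 the summed marker level given above lay lower in KO, where Slc11a1 was higher, and in M2 the ranges overlapped. Their part in the result was not tested.

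Steap3 was higher in KO in M0, with 64.5 to 69.5 TPM against 53.5 to 57.3 TPM (log2 0.27, edgeR adjusted p = 0.0176, SE 0.06), a call lost in 3 of 6 leave-one-out fits. In M2 the groups overlapped (log2 -0.02, edgeR adjusted p = 0.868, SE 0.06).

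Hmox1 was lower in KO in M2. The KO libraries (627 to 764 TPM) lay below the WT libraries (842 to 1138 TPM), with a log2 fold change of -0.58 (edgeR adjusted p = 0.0285, SE 0.12), which is 1.49-fold. The call was lost in 4 of 6 leave-one-out fits, with limma and with only the 6 libraries compared. In M0 its ranges overlapped and the value was -0.02 (edgeR adjusted p = 0.947, SE 0.12).

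Tfrc was lower in KO in M2, with 309 to 341 TPM against 392 to 440 TPM (log2 -0.42, edgeR adjusted p = 0.0326, SE 0.09), a call lost in 4 of 6 leave-one-out fits and with limma. In M0 its value was -0.28 (edgeR adjusted p = 0.0717, SE 0.09) with overlap, and it was called there without the WT libraries numbered 3 (-0.37, adjusted p = 0.0102, up to 0.283 among the alternatives), without the KO library numbered 1 (-0.37, adjusted p = 0.0359) and with DESeq2 (-0.27, adjusted p = 0.034). Slc40a1 was at 0.4 (edgeR adjusted p = 0.0592, SE 0.12) in M0 and -0.25 (edgeR adjusted p = 0.374, SE 0.15) in M2, in each case with the groups apart, and the M2 value was -0.13 without the KO library numbered 1. Its value in M0 was called with DESeq2 (0.41, adjusted p = 0.0244), without the filter on low counts (0.41, adjusted p = 0.0262) and without the WT library numbered 1 (0.5, adjusted p = 0.0373). Without the WT libraries numbered 3 it was 0.28 (adjusted p = 0.11), and the adjusted p reached 0.205 among the alternatives.

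The other genes were not called in either state. Fth1 was at 0.07 in M0 and 0.17 in M2, Ftl1 at 0.12 in both, Slc11a2 at -0.03 and 0.12, Ireb2 at -0.03 and -0.12, and Ncoa4 at 0.07 and -0.02. Some of them were nevertheless apart between the genotypes. In TPM these were Ftl1 in M0, and Fth1, Slc11a2 and Ireb2 in M2. In counts scaled to library size Ncoa4 was apart in M0. Genotypes without overlap are thus not particular to the called genes, and their share over all genes was not computed. Without the WT libraries numbered 3 Fth1 was called as well, at 0.18 (adjusted p = 0.0421) in M0 and 0.19 (adjusted p = 0.0487) in M2, the lowest values among its alternatives, which reached 0.907 and 0.447.

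The number of genotype calls moved when 1 library was left out, among the members and among all genes. In M0 the number of members called ranged from 0 (without the second WT library) to 4 (without the third WT library), and it was 1 without the second KO library or the third KO library. In M2 it ranged from 0 to 3, with 0 without the second WT library, the second KO library or the third KO library, and 1 without the first WT library. Over all 12846 genes, the calls in M0 went from 1256 to 458 without the second WT library, 545 and 580 without the second KO library and the third, and 1458 without the third WT library. In M2 they went from 344 to 34, 36 and 27 in the fits that left no member called, and to 192 without the first WT library. The fold changes of the members called moved less: over all alternatives the log2 value of Slc11a1 stayed between 0.26 and 0.34 in M0 and between 0.23 and 0.34 in M2, that of Steap3 between 0.25 and 0.3 in M0, that of Tfrc between -0.46 and -0.39 in M2, and that of Hmox1 between -0.71 and -0.5 in M2.

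**Figure D3:**
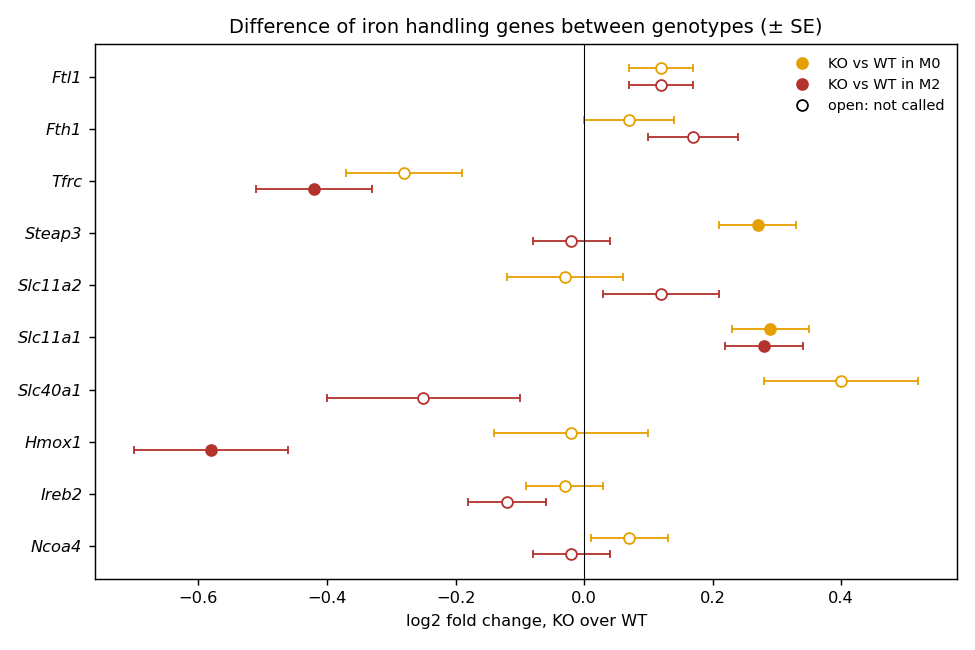
Log2 fold change between KO and WT (horizontal axis), with its SE, in M0 (orange) and M2 (red). Filled points were called at an edgeR adjusted p under 0.05. Slc11a1 is at 0.29 and 0.28 in both states, Steap3 (0.27) is filled in M0, and Hmox1 (-0.58) and Tfrc (-0.42) are filled in M2.

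Whether the IL-4 response itself differed between the genotypes was tested as a difference of the fold changes. None of the 10 members was called by edgeR (0 of 10, against 3.24% of all genes). An unadjusted p under 0.05 was found for 3 members, where 17.8% of all genes had one: Slc40a1 at -0.65 (edgeR adjusted p = 0.0931, SE 0.2), Hmox1 at -0.56 (edgeR adjusted p = 0.0931, SE 0.17) and Steap3 at -0.3 (edgeR adjusted p = 0.0919, SE 0.09). DESeq2 called these 3 members, where it called 7.19% of the 11350 genes to which it gave an adjusted p. Without the WT libraries numbered 3, edgeR called Hmox1 (-0.63, adjusted p = 0.0244), while Slc40a1 was at -0.56 (adjusted p = 0.12) and Steap3 at -0.23 (adjusted p = 0.164). Hmox1 was also called without the KO M2 library numbered 1 (-0.69, adjusted p = 0.0346).

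Libraries of the same number were read as pairs, although the labels do not say that they come from the same mouse. They deviated together between M0 and M2, but weakly (r from 0.103 to 0.364). Libraries of unlike number were not correlated for comparison, so the pairing remains an assumption. Within pairs, the log2 change of Slc40a1 was -2.25, -2.35 and -1.98 in WT and -3.03, -2.74 and -2.87 in KO. That of Hmox1 was -0.67, -0.58 and -0.84 in WT and -0.99, -1.43 and -1.34 in KO. Steap3 changed by -0.04, 0.11 and 0.25 in WT and by -0.17, -0.17 and -0.22 in KO. For these 3 genes every KO pair lay below every WT pair, as for 16.0% of all genes tested. Slc11a2 was apart in the other direction, with 0.33, 0.39 and 0.38 in KO and 0.25, 0.25 and 0.14 in WT, as were 14.7% of all genes. With the pair as a block, edgeR called the 3 genes (Slc40a1 -0.67 with adjusted p = 0.00772, Hmox1 -0.56 with 0.0168 and Steap3 -0.29 with 0.043), where 7.81% of all genes were called. Over all alternatives the adjusted p ran from 0.00772 to 0.198 for Slc40a1, from 0.0168 to 0.212 for Hmox1 and from 0.0267 to 0.196 for Steap3. The other 7 members were called by neither, with differences from -0.14 for Tfrc to 0.15 for Slc11a2.

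**Figure D4:**
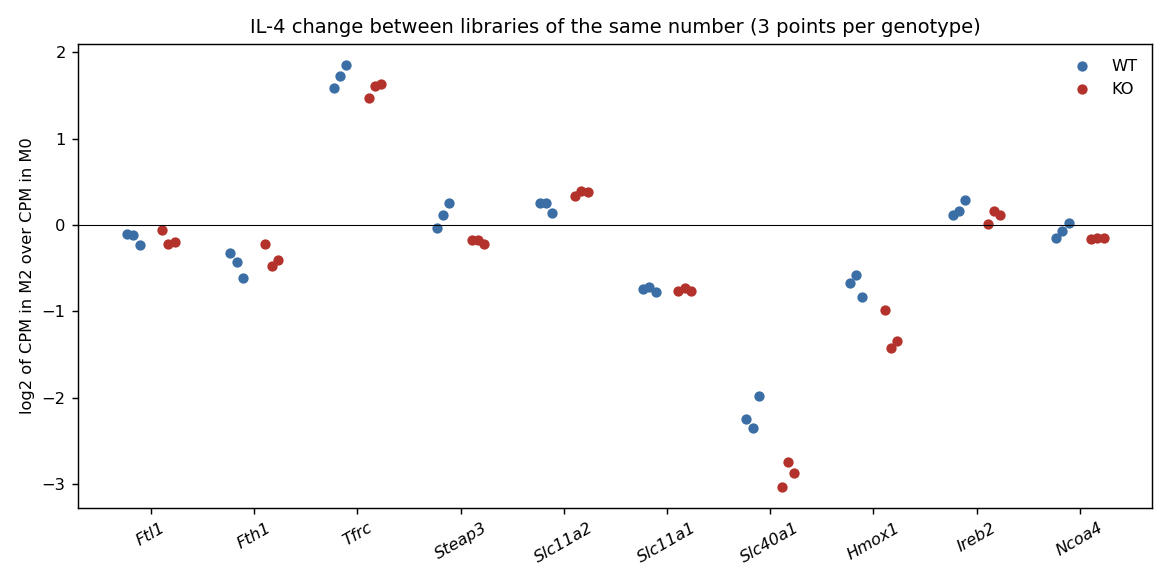
IL-4 change of each gene between libraries of the same number, as log2 of CPM (counts scaled to library size) in M2 over M0 (vertical axis), with 3 points per genotype. Slc11a1 is the same in all 6 pairs (-0.78 to -0.72), and for Slc40a1, Hmox1 and Steap3 every KO point (red) is below every WT point (blue), while for Slc11a2 every KO point is above.

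The wider iron pathway was read from 64 other genes in 7 lists, of which 63 were found and 52 passed the filter. IL-4 changed 29 of them in WT (12 higher, 17 lower) and 36 in KO (15 higher, 21 lower), with a median of -0.07 and -0.06. The shares over all genes were 50.0% in WT and 52.8% in KO, and the counts of the single lists, which are small, are to be read against them. In the list of iron sensing and control, 5 of 8 changed in WT and 8 of 8 in KO, and in that of mitochondrial iron and iron-sulphur clusters 10 and 11 of 17. In haem and haemoglobin handling 4 of 10 changed in WT, all lower, and 6 of 10 in KO, 5 of them lower. Haem synthesis had 4 and 5 of 8, other uptake 4 of 5 in each, ferritin loading and delivery 2 of 3 in each, both higher, and other export 0 of 1.

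Where the mean reached 5 CPM, the largest rises were those of Hfe, which binds the transferrin receptor (log2 1.26 in WT and 1.45 in KO), of Alas1, the first enzyme of haem synthesis (1.16 and 1.23), and of Epas1, a hypoxia-inducible factor whose mRNA holds an iron responsive element (0.99 and 1.04). Hfe went from 24.8, 23.7 and 24.9 TPM to 49.1, 53.2 and 63.8 TPM in WT. The largest falls above that level were those of Slc39a14, a zinc and iron importer (-1.32 and -1.12), and of Slc25a37, mitoferrin 1, which brings iron into mitochondria (-1.27 and -1.29). Slc39a8, a related importer, fell by 0.94 in WT, and Slc25a28, mitoferrin 2, fell by 0.91 in KO. Each of these was called in every alternative. Below that level, Spic, a transcription factor of macrophages that recycle red cells, fell more (-1.84 in WT with edgeR adjusted p = 0.00714, and -1.72 in KO with 0.0018) at a mean of 0.333 CPM, and Hp, haptoglobin, fell by 1.07 in WT and by 0.98 in KO at a mean of 1.17 CPM. Spic and Hp were added after their values were seen.

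**Figure D5:**
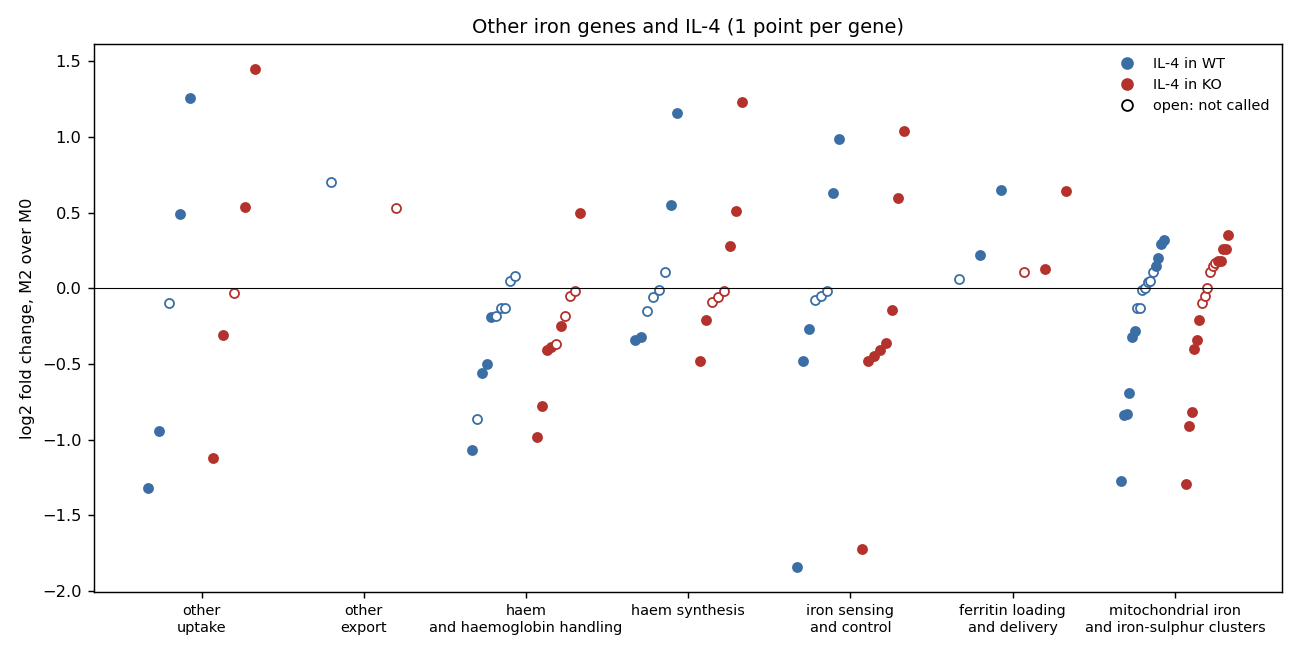
Log2 fold change between M2 and M0 (vertical axis) of the 52 other iron genes tested, by list, in WT (blue) and KO (red). Each point is a gene, and filled points were called at an edgeR adjusted p under 0.05. Points spread to both sides of 0 in most lists, and the haem and haemoglobin handling genes lie mostly below it.

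Between genotypes, 5 of the 52 were called in M0, where 9.78% of all genes were called, and 1 in M2, where 2.68% were, so that both counts lay near the background. In M0, Fbxl5, which marks iron regulatory protein 2 for degradation when iron is plentiful, was higher in KO (0.24, edgeR adjusted p = 0.0263, SE 0.06), with 43, 40.5 and 39.7 TPM against 31.5, 34.5 and 34.2 TPM in WT. Slc39a8 (-0.43), Lyrm4 of the iron-sulphur cluster machinery (-0.27) and Slc25a37 (-0.26) were lower, and the fifth was Slc39a14 (-0.25), which falls outside the rule for named genes and was added after its value was seen. In M2 only Slc25a37 was called (-0.27, edgeR adjusted p = 0.0151, SE 0.05), with 9.98, 11.3 and 11.1 TPM in KO and 11.9, 11.4 and 13 TPM in WT. The Fbxl5 call in M0 was lost in 6 of 15 alternatives, the Lyrm4 call in 10 of 15, among them the fit without the WT libraries numbered 3, the Slc25a37 call in M0 in 2 of 15, both with limma, and that in M2 in 6 of 15. The Slc39a8 call was kept in all 15, and that of Slc39a14 was lost in 5 of 15.

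Over the 12 libraries, the genes most like Tfrc by Pearson's r of log2 CPM among 9746 genes were B430306N03Rik (0.994), Atp6v0d2, a subunit of the proton pump that acidifies endosomes and lysosomes (0.993), and Abcd3 (0.991). Ccp110 (0.993) and Helb (0.993) were among those most like Slc40a1. Hmox1 was most like Lzts3 (0.983), Gtf2ird1 (0.978) and Jag1 (0.974). Fth1 was most like Blvrb (0.986), which reduces biliverdin, then Aldoa (0.979) and Ifitm2 (0.979). Within the list, r was -0.952 between Tfrc and Slc40a1, 0.902 between Slc40a1 and Hmox1, and 0.687 between Hmox1 and Fth1. All these points share the contrast between M0 and M2, which by itself gives high values of r.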

How the data were processed

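The authors aligned reads of poly(A)-enriched, stranded libraries to GRCm38 and deposited, for each library, expected counts (in which ambiguous reads are shared out between genes), TPM and mean transcript lengths per gene. Whether the counting used strand is not given in the sources used here. Reads were not analysed here. The authors' DESeq2 tables of fold changes and p-values supplied gene symbols only. Groups and numbers came from the sample labels, with 3 libraries each.

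Rounded counts that passed filterByExpr were fitted with edgeR 4.0.16 in R 4.3.3, using TMM normalization and the quasi-likelihood F test with a term for each of the 4 groups (common biological coefficient of variation 8.08%). Each p was adjusted over all 12846 genes (Benjamini-Hochberg), and genes were called under 0.05. An SE is the fold change divided by the square root of F. Alternatives were DESeq2 1.42.0, RLE in place of TMM, no filter or 1 CPM in 3 libraries as filter, limma 3.58.1 on log2(TPM + 1) and log2(TPM + 0.1), the posterior mean TPM, a replicate block, only the 6 libraries compared, leaving out each library, and, chosen after seeing the data, leaving out the WT libraries numbered 3. Libraries of the same number deviated together between M0 and M2 (r from 0.103 to 0.364) but not between WT and KO (-0.0684 to 0.0403). In simulated counts of 12846 genes, of which 200 were changed by 1 on the log2 scale, edgeR recovered 77% when the IL-4 responses of the genotypes were set against each other, 84.5% for IL-4 among WT libraries, 84% among KO libraries, 83.5% for KO against WT in M0 and 81.5% for that contrast in M2. Of the calls made there, 6.67%, 6.11%, 6.15%, 4.57% and 2.98%, in the same order, were genes that had not been changed. This setting differs from the data. The genotype differences called among the members were smaller, the largest being -0.58 (Hmox1 in M2). IL-4 changed 50.0% of all genes in WT and 52.8% in KO, and no simulated library was made to stand apart. The shares therefore do not give the power or error of the results above. The study gives 3 mice per group, but the labels do not say which library came from which mouse.

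Hairpins were searched in GENCODE M21, whose transcript versions are later than those in the tables. The 10 members and all gene lists were chosen with earlier results of these data known. Named genes are the members, for each comparison the 3 other iron genes called with the largest rise and fall at a mean of at least 5 CPM, and the 3 genes most correlated with Tfrc, Slc40a1, Hmox1 and Fth1. Igf2bp2 and Lyz2 served as check of the labels. A gene whose pattern resembled that of Slc40a1 is not reported here.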

Additional observations from a re-analysis of the deposited data

Results flagged for a closer look

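The IL-4 response of 2 of the 52 iron genes tested outside the list of 10 differed between the genotypes by the test of the difference itself, a share near the 3.24% of all genes called by that test. Slc39a8, an importer of zinc and iron, had a difference of 0.63 (KO minus WT, log2, SE 0.1, edgeR adjusted p = 0.00755), because it fell by 0.94 in WT and by 0.31 in KO. Its levels were 14.8, 15.2 and 12.7 TPM in WT M0 and 7.31, 7.07 and 6.97 TPM in WT M2, and in KO 11, 9.91 and 10.9 TPM in M0 and 7.14, 8.38 and 8.67 TPM in M2. The call was lost in 2 of 20 alternatives, both with limma on TPM.

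Fbxl5, a subunit of the ligase that degrades iron regulatory protein 2, had a difference of -0.38 (SE 0.09, edgeR adjusted p = 0.0338). It fell by 0.45 in KO, from 43, 40.5 and 39.7 TPM to 29.1, 29 and 25.9 TPM, while in WT it was at 31.5, 34.5 and 34.2 TPM in M0 and 32.2, 28.3 and 31.7 TPM in M2. This call was lost in 10 of 20 alternatives.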

How the results depend on the processing

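Of 1079 alternative values for 69 single genes and comparisons, 943 kept direction and side of the threshold, 85 lost a call, 29 gained one and 22 turned direction. In M0 the number of members called between genotypes, 2 in the reported fit, was 4 with DESeq2 and without the WT libraries numbered 3, 1 with limma on either scale of TPM, and 0 to 4 without 1 library. In M2 it was 3, and became 0 with limma on either scale, 1 with only the 6 libraries compared, and 0 to 3 without 1 library. For the difference between the IL-4 responses it was 0, and became 3 with DESeq2 and with the replicate block, 2 without a filter on low counts, 1 without the WT libraries numbered 3, and 0 to 1 without 1 library. The calls over all genes moved as well. In M0 they went from 1256 to 1560 with DESeq2, 752 and 700 with limma, and 1739 without the WT libraries numbered 3. In M2 they went from 344 to 70 and 57 with limma and 163 with only the 6 libraries compared. For the difference they went from 416 to 816 with DESeq2, 1003 with the block, 444 without a filter and 443 without the WT libraries numbered 3. The counts for IL-4 stayed within 1.5 times under every alternative, but some calls were lost. In KO, Ftl1, Steap3 and Ncoa4 were all lost without the M0 library numbered 1 or the M2 library numbered 3. Over all genes the calls there went from 6784 to 6050 and 6130. In WT, Ftl1 and Ireb2 were both lost without the M0 library numbered 3 or the M2 library numbered 2. Over all genes these went from 6428 to 6170 and 5601. The replicate block gave 8 in WT and 9 in KO. It also called Tfrc between genotypes in M0, where the numbers do not pair the libraries. Turned directions concerned values near 0 that were not called. Without 1 library, the range was -0.1 to 0.05 (Slc11a2), -0.08 to 0.05 (Hmox1) and -0.08 to 0.01 (Ireb2) in M0, -0.1 to 0.05 (Steap3) and -0.08 to 0.03 (Ncoa4) in M2, and -0.06 to 0.04 (Ftl1), -0.01 to 0.15 (Fth1) and -0.06 to 0.05 (Slc11a1) for the difference between responses. Without the WT libraries numbered 3 Steap3 was at 0.05 and Ncoa4 at 0.03 in M2, and with limma the difference of Slc11a1 was 0.0. The Fth1 to Ftl1 ratio between genotypes in M0 ranged from -0.11 to 0.02 without 1 library. The causes were not tested. With 3 libraries per group an exact test of 1 gene cannot go below 0.1, so that calls rest on a spread shared across genes, and small differences may be missed.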

Other observations

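The tables give the mean length of the transcripts of a gene, weighted by their estimated shares. For Tfrc, where the 4890-base transcript Tfrc-201 holds the hairpins and the 1860-base transcript Tfrc-202 does not, this length was 4405, 4489 and 4424 bases in WT M0 and 4209, 4297 and 4302 bases in KO M0. In M2 it was 4469, 4494 and 4638 bases in WT and 4174, 4434 and 4466 bases in KO. In both states the KO values lay below the WT values, but in M2 the nearest were 4466 bases in KO and 4469 in WT, which is hardly apart. How many of all genes have lengths apart in this way was not computed. For Slc11a2 it ranged from 1852 to 2184 bases in WT and from 1699 to 2031 bases in KO, with overlap. The lengths were looked at after the hairpins were found, and no test was run on them. They are estimates from short single-end reads and depend on the transcript models used.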
